A study of Mus musculus with 9 samples.

Results

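The miR-10, miR-99/100 and miR-125 families were examined in small RNA from mouse liver exosomes through 7 mature miRNAs: mmu-miR-10a-5p, mmu-miR-10b-5p, mmu-miR-99a-5p, mmu-miR-99b-5p, mmu-miR-100-5p, mmu-miR-125a-5p and mmu-miR-125b-5p, written without the species prefix below. These are 7 of the 722 entries in the deposited count table, and all 7 were found in it. They are relatives by sequence and by position in the genome, and they were chosen by measured values as well. miR-125a-5p, miR-125b-5p and miR-10b-5p had ranked high in the knockout libraries of the same table, so every difference between the knockout group and another group is given below as a description with no test. In the genotype comparison these 3 stood the first, the fourth and the sixth of 248 tested entries in order of p.

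Exosomes, small vesicles that cells release, had been collected, by centrifugation in steps, from liver pieces that were kept in culture with collagenase. KO HFFC mice carried floxed Hsp90β (Hsp90ab1) alleles and Albumin-Cre, which is active in hepatocytes, and were fed HFFC, a diet rich in fat, fructose and cholesterol. Flox HFFC mice carried the same floxed alleles, with exons 1 to 3 between loxP sites and no Cre, and ate the same diet, and flox chow mice carried them on normal chow. Each group had 3 libraries, which the study counts as 3 mice, and per the methods the mice entered the feeding as young adults. The strain background of the floxed line and the sex of these mice are not given in the labels or methods. Every KO library carried Cre and no flox library did, so the deletion and the presence of Cre cannot be told apart, and with no knockout on chow the genotype is seen on 1 diet only. Hsp90ab1 is read out as an mRNA, so a miRNA table does not check its deletion.

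A mature miRNA guides a silencing complex to messenger RNAs mainly through its seed, the bases that follow the first one at the 5′ end, so family members with 1 seed are expected to share many targets. miR-10a and miR-10b lie inside the Hox gene clusters and are known from the patterning of the body axis. The miR-99/100 and miR-125 families lie together with let-7 hairpins in clusters that have been kept through animal evolution, and miR-125 is the vertebrate counterpart of lin-4, the first miRNA found in the nematode Caenorhabditis elegans. In the adult, miR-125b is known from blood stem cells and from tissue repair, and miR-99/100 members are known to restrain mTOR signalling.

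The 7 mature sequences are shown because the families are defined by them. They were taken from RefSeq (mouse build GRCm38.p6) and are written from 5′ to 3′, and capitals mark the seed, bases 2 to 8.
mmu-miR-10a-5p: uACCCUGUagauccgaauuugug
mmu-miR-10b-5p: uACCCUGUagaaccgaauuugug
mmu-miR-99a-5p: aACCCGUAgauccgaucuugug
mmu-miR-99b-5p: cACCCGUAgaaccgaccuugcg
mmu-miR-100-5p: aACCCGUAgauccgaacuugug
mmu-miR-125a-5p: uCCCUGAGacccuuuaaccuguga
mmu-miR-125b-5p: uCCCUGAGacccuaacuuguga

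There are 3 seeds among them. With positions counted from 1 at the 5′ end, miR-10b-5p differs from miR-10a-5p by U12A alone, and miR-100-5p differs from miR-99a-5p by U16A alone. miR-99b-5p differs from miR-99a-5p at 4 positions (A1C, U11A, U16C and U21C), all of them outside the seed. miR-125a-5p and miR-125b-5p have different lengths (24 and 22 bases) and are identical over their first 13 bases. The miR-10 and miR-99/100 sequences are also related by runs that begin within the seed and extend past it. miR-10a-5p shares the run guagauccga with miR-99a-5p and miR-100-5p, and miR-10b-5p shares guagaaccga with miR-99b-5p. How reads that fit 2 such relatives, or that carry a mismatch, were assigned is not given in the sources, so counts of miR-10a-5p against miR-10b-5p, and of miR-99a-5p against miR-100-5p, are uncertain to that extent.

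In GENCODE M21 (GRCm38) the hairpins lie at 8 loci, since miR-125b-5p is made from a pair of them. Mir99b (chr17:17830188-17830257), Mirlet7e and Mir125a (chr17:17830812-17830879) follow each other within 692 bp of the plus strand inside Spaca6, Mir99b and Mirlet7e in an intron and Mir125a over an exon of one of its transcripts. Mir99a (chr16:77598936-77599000), Mirlet7c-1 and Mir125b-2 (chr16:77646273-77646343) span 47.4 kb in introns of the long non-coding host gene Mir99ahg. Mir100 (chr9:41531425-41531504), Mirlet7a-2 and Mir125b-1 (chr9:41581926-41582002) span 50.6 kb in introns of 3110039I08Rik, a non-coding transcript. Mir10a (chr11:96317165-96317274) lies 993 bp from Hoxb4, and Mir10b (chr2:74726070-74726137) lies in an intron of transcripts of Hoxd3 and Hoxd4. All 8 hairpins are on the plus strand.

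The libraries held 218256 to 681286 miRNA counts, which made up 0.849% to 2.61% of the tags the authors had scaled by. The 7 miRNAs together gave 35367 counts. Levels below are counts per 1e+06 miRNA counts of the library (CPM), unless they are said to carry TMM scaling, which corrects library totals by the trimmed mean of log ratios between libraries. Where 0 reads were counted up to 3 could have been missed, or 4.4 to 13.7 CPM by library. Such limits and the intervals given with shares cover counting error only.

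Among the 7, miR-99a-5p was the most abundant, with a mean level over the 9 libraries of 5954 CPM and the 28th place of 722 entries. It was followed by miR-100-5p at 1159 CPM, miR-10a-5p at 720 CPM, miR-99b-5p at 499 CPM and miR-125b-5p at 155 CPM. The lowest were miR-125a-5p at 61.9 CPM and miR-10b-5p at 26.7 CPM, the 234th place. All are 22 to 24 bases long, and adapters are known to ligate to some miRNA ends better than to others. miR-99a-5p stood above miR-100-5p in 9 of 9 libraries with ranges that did not overlap, 5.14 times as high by mean. miR-99b-5p stood above miR-125b-5p in 9 of 9 libraries, whereas the order of the other neighbours was broken in some: miR-100-5p over miR-10a-5p held in 8 of 9 libraries, miR-10a-5p over miR-99b-5p in 7 and miR-125b-5p over miR-125a-5p in 8. The order of miR-125a-5p and miR-10b-5p held in 5 of 9 libraries, so these neighbours were not separated.

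In the miR-125 family, which was among the reasons for the choice, miR-125a-5p had the largest difference of the 7 between the knockout and the flox groups. It had 44.9, 153 and 310 CPM in KO HFFC replicates 1, 2 and 3, against 0, 11.6 and 14.9 CPM in flox HFFC and 6.18, 11.7 and 4.58 CPM in flox chow. These levels rest on 19, 70 and 95 counts in KO HFFC, 0, 7 and 6 counts in flox HFFC and 3, 8 and 1 counts in flox chow. Each KO HFFC library was above all 6 flox libraries, but the knockout libraries were spread widely, with replicate 3 well above replicate 1. By mean, miR-125a-5p was at 169 ± 133 CPM in KO HFFC, 8.82 ± 7.81 in flox HFFC and 7.5 ± 3.76 in flox chow (SD, n = 3 each).

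miR-125b-5p, with the same seed, had 456, 208 and 205 CPM in KO HFFC replicates 1, 2 and 3, against 74.9, 79.4 and 62 CPM in flox HFFC and 105, 147 and 55 CPM in flox chow. It too was higher in each KO HFFC library than in all 6 flox libraries. Among the knockout libraries it was highest in replicate 1, where miR-125a-5p was lowest. The means were 290 ± 144 CPM in KO HFFC, 72.1 ± 9.05 in flox HFFC and 102 ± 46 in flox chow (SD, n = 3 each).

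In the miR-10 family the paralogs parted. miR-10b-5p, the product of the Hoxd cluster, had 30.7, 41.5 and 91.3 CPM in KO HFFC, against 10.2, 6.62 and 2.48 CPM in flox HFFC and 14.4, 29.4 and 13.7 CPM in flox chow. These were 13, 19 and 28 counts in KO HFFC, 3, 4 and 1 counts in flox HFFC and 7, 20 and 3 counts in flox chow, which leaves the flox levels imprecise. The KO HFFC libraries again stood above all flox libraries, and the lowest of them came close to the highest flox chow library. miR-10a-5p, the product of the Hoxb cluster, had 1154, 586 and 669 CPM in KO HFFC, against 453, 877 and 508 CPM in flox HFFC and 812, 1051 and 371 CPM in flox chow, and the 3 groups overlapped.

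The miR-99/100 family held the most abundant members. miR-99b-5p had 601, 686 and 1269 CPM in KO HFFC, against 279, 445 and 255 CPM in flox HFFC and 233, 442 and 284 CPM in flox chow, with all KO HFFC libraries above all flox libraries. miR-100-5p had 1495, 1619 and 1927 CPM in KO HFFC, against 718, 1260 and 580 CPM in flox HFFC and 807, 1513 and 513 CPM in flox chow. KO HFFC was above flox HFFC in every library, while flox chow replicate 2 passed the lowest knockout library. miR-99a-5p had 10033, 7477 and 5521 CPM in KO HFFC, against 4113, 6317 and 4174 CPM in flox HFFC and 4196, 8999 and 2754 CPM in flox chow, and its groups overlapped.

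**Figure D1:**
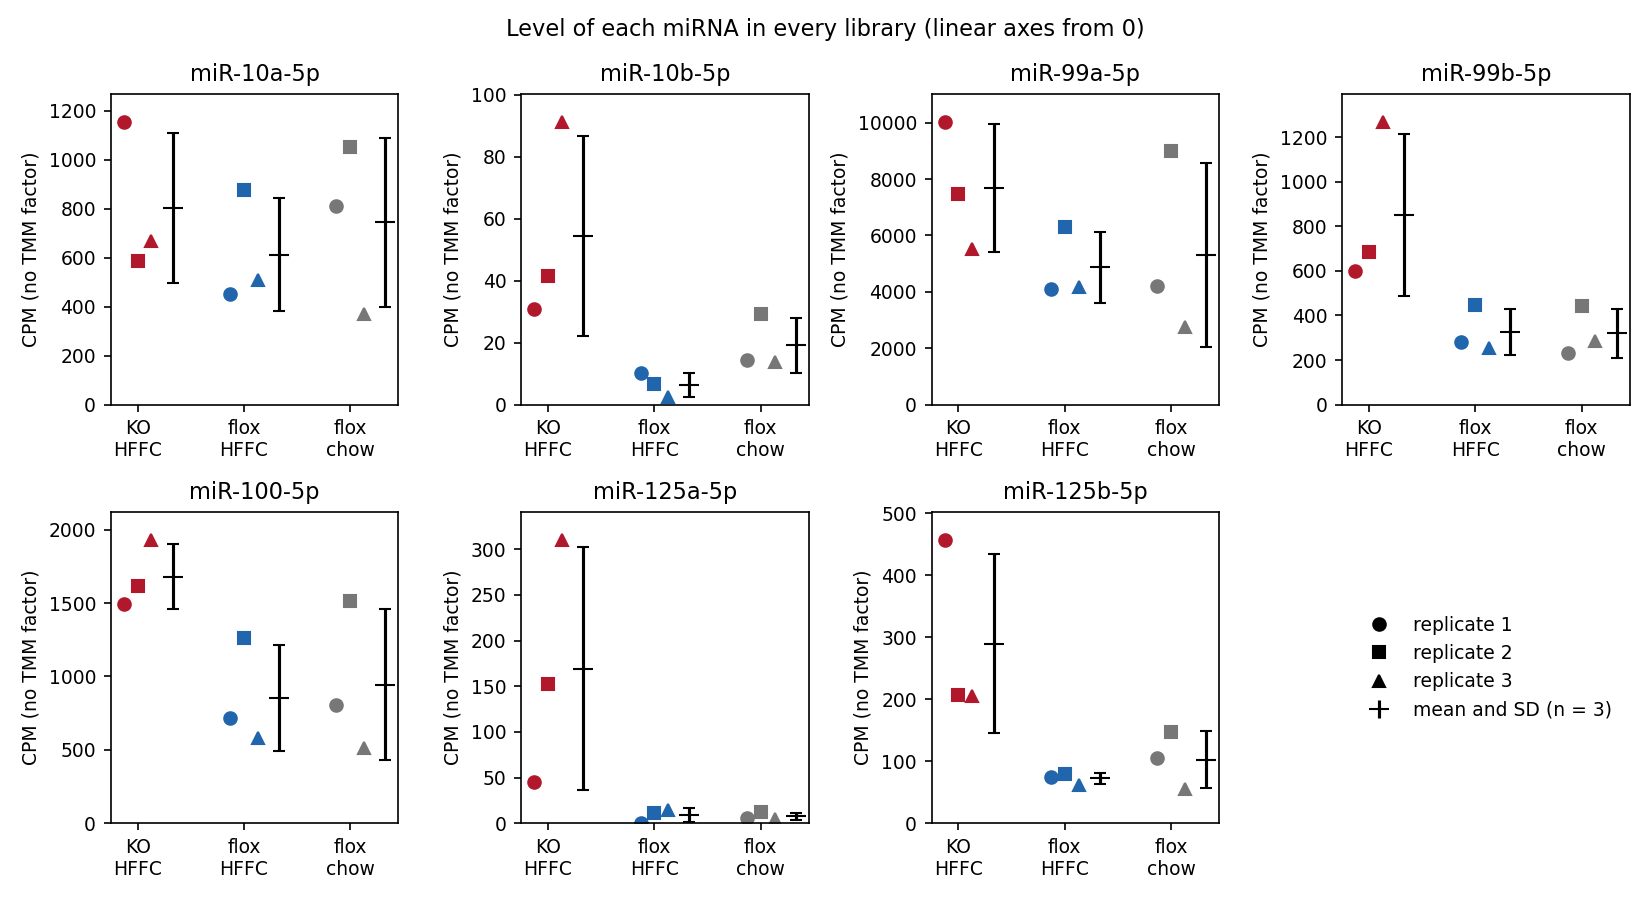
Each panel shows 1 miRNA, with its level in CPM on a linear axis from 0 and 1 symbol per library; bars give the mean and SD of the 3 libraries of a group. For miR-125a-5p the KO HFFC libraries sit at 44.9 to 310 and every flox library at 14.9 or lower, whereas the groups of miR-10a-5p and miR-99a-5p overlap.

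The genotype comparison asks how the vesicles differ when hepatocytes of HFFC-fed mice lack Hsp90β, and it is the contrast the members were chosen on. Its log2 fold changes (edgeR, TMM scaling, KO HFFC over flox HFFC) were 3.92 ± 0.90 (SE) for miR-125a-5p, 2.81 ± 0.85 for miR-10b-5p and 1.77 ± 0.50 for miR-125b-5p. They were 1.14 ± 0.46 for miR-99b-5p and 0.73 ± 0.44 for miR-100-5p, which were not named among the reasons for the choice, and 0.42 ± 0.38 for miR-99a-5p and 0.16 ± 0.48 for miR-10a-5p. Within each seed family the order of these values was the reverse of the order of level, so the scarcest member had the largest. Nothing is read from this order. The scarcest of the miR-125 and miR-10 families, miR-125a-5p and miR-10b-5p, were chosen for high knockout levels. They had 13 and 8 counts in all in flox HFFC. All 7 values were above 0, as were 48.4% of the 248 tested entries, and their median was 1.14 against −0.03 over all tested entries. For 5 of the 7 every KO HFFC library was above every flox HFFC library, which held for 6.85% of the tested entries. Nothing is read from these counts, since the contrast chose the members. Over the whole table, edgeR's quasi-likelihood test with Benjamini-Hochberg adjustment called 0 of 248 entries (0%) at 0.05 in this comparison, with 20 entries at an unadjusted p under 0.05. DESeq2, fitted without the low-count filter, called 5 of 718 entries, and limma-voom called 0 of 248.

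Set against flox chow, which differs in diet as well as genotype and shares the knockout libraries, the log2 fold changes were 4.16 ± 0.92 (SE) for miR-125a-5p, 1.30 ± 0.49 for miR-125b-5p and 1.25 ± 0.76 for miR-10b-5p. miR-99b-5p was at 1.19 ± 0.46, miR-100-5p at 0.65 ± 0.44, miR-99a-5p at 0.36 ± 0.38 and miR-10a-5p at −0.07 ± 0.48. Of the 7, 6 had a value above 0, against 47.6% of the tested entries, and 4 did not overlap with all KO HFFC libraries higher, against 8.06%. The median was 1.19 over the 7 and −0.05 over all tested entries. Nothing is read from these counts or medians. The knockout libraries served to choose the members and brought miR-10b-5p and miR-125a-5p past the count filter. Here too edgeR called 0 of 248 (0%), although 32 entries had an unadjusted p under 0.05. DESeq2 called 6 of 718 entries and limma-voom 0 of 248.

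**Figure D2:**
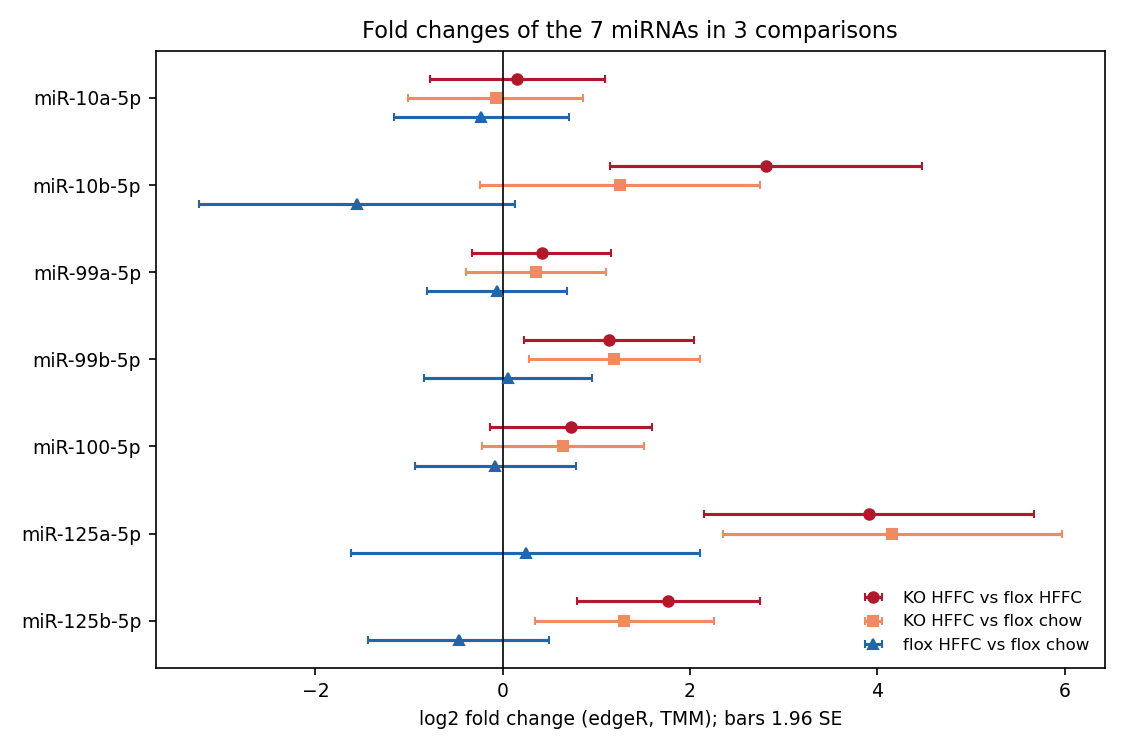
Log2 fold changes of the 7 miRNAs in 3 comparisons, with bars for the 95% interval of the edgeR estimate. The values of KO HFFC chose the members and carry no test; the flox HFFC against flox chow values lie between −1.56 (miR-10b-5p) and 0.25 (miR-125a-5p), each with bars that cross 0.

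The knockout libraries were not alike in these miRNAs, nor in others. A group of 6 miRNAs led by miR-204-5p, which an earlier account of these data had set after seeing them, summed to 180, 4099 and 11750 CPM in KO HFFC replicates 1, 2 and 3, against 62.8 to 160 in flox HFFC and 59.7 to 160 in flox chow. miR-204-5p itself, known from epithelia such as the retinal pigment epithelium, had 5, 1125 and 2105 counts in KO HFFC, against 1 to 2 in flox HFFC and 1 to 4 in flox chow. miR-125a-5p, miR-10b-5p, miR-99b-5p and miR-100-5p were each highest in KO HFFC replicate 3 and lowest in replicate 1, as the miR-204 group was. miR-125b-5p, miR-99a-5p and miR-10a-5p were instead highest in replicate 1, where miR-204-5p had 5 counts.

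With replicate 1 as the lone knockout library, the log2 fold changes over flox HFFC were 2.15 for miR-125a-5p, 2.11 for miR-10b-5p and 2.53 for miR-125b-5p. They were 0.76 for miR-99b-5p, 0.69 for miR-100-5p, 0.92 for miR-99a-5p and 0.79 for miR-10a-5p. All 7 values were above 0, that of miR-125a-5p being smaller than with all 3 knockout libraries and that of miR-125b-5p larger. They rest on 1 knockout library, and the part of the miR-204 group in the differences was not tested. Without replicate 1 the values were 4.34 for miR-125a-5p, 1.21 for miR-125b-5p and 0.11 for miR-99a-5p, and miR-10a-5p turned to −0.25. Leaving out replicate 3 in place of it gave 3.15 for miR-125a-5p, 2.18 for miR-10b-5p and 0.70 for miR-99b-5p. Against flox chow, miR-10b-5p was at 0.63 and miR-99b-5p at 0.71 without replicate 3. Without replicate 1, miR-125b-5p was at 0.69, miR-99a-5p at 0.005 and miR-10a-5p at −0.54 over flox chow, and without flox chow replicate 2 miR-99a-5p was at 0.75.

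**Figure D3:**
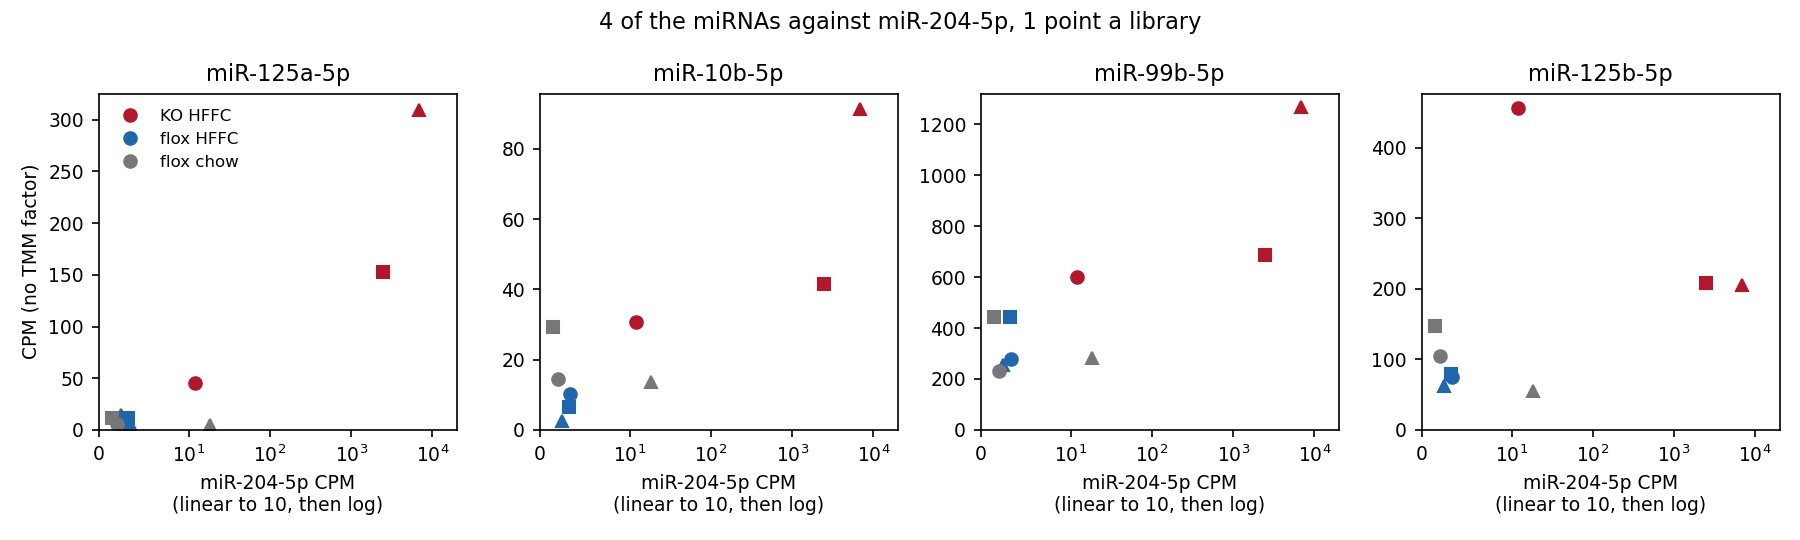
Levels of 4 of the miRNAs (linear axes, CPM) against miR-204-5p (CPM, linear to 10 and logarithmic above), with 1 point per library, colours for groups and circles, squares and triangles for replicates 1, 2 and 3. KO HFFC replicates 2 and 3 stand far to the right at 2458 and 6865 CPM of miR-204-5p, and miR-125b-5p is highest in replicate 1, which stands among the flox libraries on that axis.

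Within each family the share of each paralog also differed between libraries, a measure that does not depend on library scaling. It does depend on the choice of miR-125a-5p, miR-125b-5p and miR-10b-5p for high knockout levels. Their shares in KO HFFC are therefore a description from which nothing is read. miR-125a-5p made up 8.96% (95% Wilson interval 5.81% to 13.6%), 42.4% (35.1% to 50.1%) and 60.1% (52.3% to 67.4%) of the miR-125 counts in KO HFFC replicates 1, 2 and 3. In flox HFFC it made up 0% (0% to 14.9%), 12.7% (6.3% to 24%) and 19.4% (9.19% to 36.3%), and in flox chow 5.56% to 7.69%. Thus 2 knockout libraries stood above every flox library and replicate 1 lay within the flox range. miR-10b-5p made up 2.59%, 6.62% and 12% of the miR-10 counts in KO HFFC, against 0.485% to 2.21% in flox HFFC and 1.75% to 3.57% in flox chow, again with replicate 1 inside the range of the flox libraries.

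In the miR-99/100 family, miR-99b-5p took 4.95%, 7.01% and 14.6% of the counts in KO HFFC, against 5.1% to 5.55% in flox HFFC and 4.03% to 8% in flox chow. miR-99a-5p took 82.7%, 76.4% and 63.3% in KO HFFC, against 78.7% to 83.3% in flox HFFC and 77.5% to 82.2% in flox chow. KO HFFC replicate 3 therefore had the highest share of miR-99b-5p and the lowest of miR-99a-5p of all 9 libraries. Over all 7 miRNAs, miR-99a-5p made up 55.3% of the counts in that library and 68% to 74.6% in the other 8.

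The yield of the libraries moved with the summed level of the family among the flox libraries. The 7 miRNAs together took 1.38%, 1.08% and 0.999% of miRNA counts in KO HFFC (mean 1.15% ± 0.201, SD, n = 3), against 0.565%, 0.9% and 0.56% in flox HFFC (0.675% ± 0.195) and 0.617%, 1.22% and 0.4% in flox chow (0.746% ± 0.425). Among the flox libraries the share was lowest, at 0.4%, in the library of 218256 counts and highest, at 1.22%, in the library of 681286 counts. The knockout libraries held 306626 to 457678 counts, and the flox libraries of 293708 to 485453 counts took 0.56% to 0.617%. Knockout levels were part of the choice of members, so nothing is read from this. The part of yield in the differences was not tested.

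**Figure D4:**
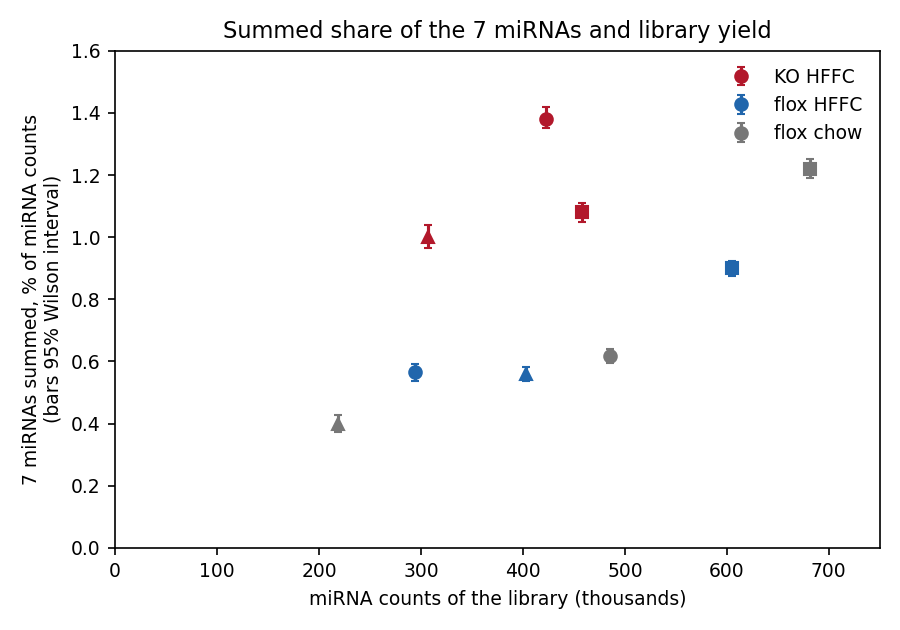
Summed share of the 7 miRNAs (percent of miRNA counts, with 95% Wilson intervals) against the miRNA counts of the library, 1 point per library. Flox libraries run from 0.4% at the lowest yield to 1.22% at the highest, and the 3 KO HFFC libraries lie at 0.999% to 1.38%.

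The diet comparison, flox HFFC against flox chow, asks what the HFFC diet does in mice with intact Hsp90β, and it is the comparison in which the members were tested, although its flox HFFC libraries also served as the reference of the contrast that chose them. None of the 7 passed. The values closest to 0 were those of the miR-99/100 family, with −0.06 ± 0.38 (log2 fold change ± SE) for miR-99a-5p, 0.06 ± 0.46 for miR-99b-5p and −0.08 ± 0.44 for miR-100-5p. Their 95% intervals were −0.80 to 0.69, −0.84 to 0.96 and −0.94 to 0.78, so changes within those bounds remain possible. The intervals do not give the smallest change that the adjusted test could call.

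miR-10b-5p had the lowest value, −1.56 ± 0.86 (SE, 95% interval −3.24 to 0.13), with every flox HFFC library below every flox chow library, 8 counts in all in flox HFFC and 30 in flox chow. Its paralog miR-10a-5p was at −0.23 ± 0.48, miR-125b-5p at −0.47 ± 0.49 and miR-125a-5p at 0.25 ± 0.95, and their groups overlapped. The adjusted p of edgeR's quasi-likelihood test was 0.985 for each of the 7. miR-10b-5p and miR-125a-5p were tested here only because the knockout libraries brought them past the count filter. In a fit of the flox libraries alone neither passed it. Of the 7, 1 (miR-10b-5p) did not overlap with all flox HFFC libraries lower, as did 3.63% of all tested entries, and nothing is read from it. A negative value was found for 5, as for 51.6%. The median was −0.08 over the 7 and −0.02 over all tested entries. edgeR called 0 of 248 entries (0%), with 11 entries and none of the 7 at an unadjusted p under 0.05, and DESeq2 and limma-voom also called 0.

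Shares within the families were also compared between the diets, in a design of 3 against 3 libraries whose smallest possible p is 0.1, so no share could pass. The share of miR-10b-5p in the miR-10 family averaged 1.15% ± 0.927 in flox HFFC and 2.68% ± 0.914 in flox chow, with a p of 0.2 by an exact two-sided permutation test (SD, n = 3 each). That of miR-125a-5p in the miR-125 family averaged 10.7% ± 9.84 in flox HFFC and 6.89% ± 1.16 in flox chow, with an exact p of 0.7. For the 8 shares tested the adjusted p was 0.8 to 1.

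Of the 6 let-7 products listed from the clusters of the family, 3 were tested, let-7e-5p, let-7c-5p and let-7a-5p. All 3 had log2 fold changes below 0 in KO HFFC over flox HFFC, with 95% intervals that crossed 0. Of all tested entries 48.4% were above 0. Over flox chow 1 of the 3 was above 0, let-7e-5p at 0.05 ± 0.42 (SE), and let-7c-5p was at −0.29 ± 0.27. let-7a-5p was at −0.57 ± 0.21 over flox chow (95% interval −0.98 to −0.16). Its adjusted p by edgeR's quasi-likelihood test was 0.345. With TMM scaling every KO HFFC library was below every flox chow library in let-7a-5p. Its plain levels overlapped, at 24341 to 30448 CPM in KO HFFC and 27161 to 39869 CPM in flox chow. let-7e-5p, whose hairpin lies between Mir99b and Mir125a, had 352, 599 and 662 CPM in KO HFFC, against 422, 397 and 806 CPM in flox HFFC and 474, 448 and 385 CPM in flox chow. Its log2 fold change of KO HFFC over flox HFFC was −0.23 ± 0.42 (SE), beside 1.14 for miR-99b-5p and 3.92 for miR-125a-5p from the same 692 bp. The groups of let-7e-5p overlapped.

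As raw counts, miR-99b-5p was 1.7, 1.15 and 1.92 times let-7e-5p in KO HFFC, against 0.661, 1.12 and 0.317 times in flox HFFC and 0.491, 0.987 and 0.738 times in flox chow. miR-99b-5p was 13.4, 4.49 and 4.09 times miR-125a-5p in KO HFFC, against 38.4 and 17.2 times in the flox HFFC libraries where miR-125a-5p was counted and 37.6 to 62 times in flox chow. The choice of miR-125a-5p and miR-125b-5p for high knockout levels fixes the direction of any ratio to them, so nothing is read from these, and for let-7e-5p the lowest KO HFFC ratio (1.15) lay close to the highest flox HFFC ratio (1.12). On chromosome 16, miR-99a-5p was 22 to 36 times miR-125b-5p in KO HFFC, against 54.9 to 79.6 times in flox HFFC and 39.9 to 61.3 times in flox chow. let-7c-5p was 3.62 to 4.13 times miR-99a-5p in KO HFFC, against 5.67 to 6.92 times in flox HFFC and 4.22 to 8.56 times in flox chow.

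let-7c-5p and let-7a-5p, the abundant let-7 products of the other clusters, had log2 fold changes of −0.23 ± 0.27 (SE) and −0.33 ± 0.21 in KO HFFC over flox HFFC. Both are also made from other loci, and so is miR-125b-5p from its 2 hairpins, so these clusters cannot be read as single transcripts from the mature counts. On chromosome 9, miR-100-5p was 3.27, 7.8 and 9.38 times miR-125b-5p in KO HFFC, against 9.36 to 15.9 times in flox HFFC and 7.69 to 10.3 times in flox chow, so that only replicate 1 lay below all flox libraries.

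**Figure D5:**
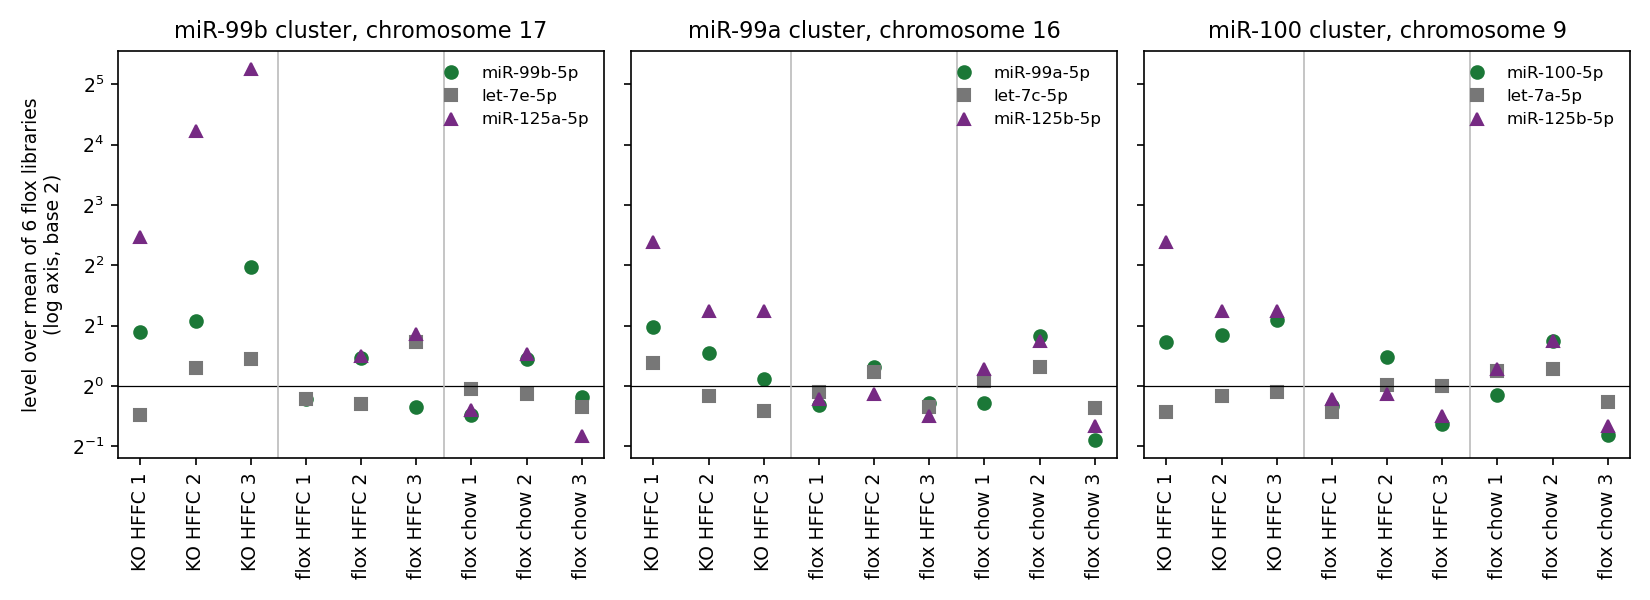
Level of each miRNA of the 3 clusters in each library, as a ratio to its mean over the 6 flox libraries on a log axis of base 2, with miR-99/100 members as circles, let-7 members as squares and miR-125 members as triangles. miR-125a-5p reaches 5.51, 18.7 and 38 times its flox mean in KO HFFC while let-7e-5p stays at 0.721, 1.23 and 1.36 times; the flox HFFC library in which miR-125a-5p had 0 counts has no triangle in the first panel.

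Other products of the same hairpins were scarce. The opposite arms, of which 7 of 8 listed were matched, gave 228 counts, against 35367 for the members, and miR-10b-3p was not analysed here. miR-99b-3p had 7, 16 and 25 counts in KO HFFC, against 12, 10 and 4 in flox HFFC and 4, 4 and 3 in flox chow, and its groups overlapped between KO HFFC and flox HFFC. It made up 4.52% ± 1.7 of both miR-99b arms in KO HFFC, 6.7% ± 5.26 in flox HFFC and 3.12% ± 1.67 in flox chow (SD, n = 3 each). miR-100-3p had 28 counts in KO HFFC, 23 in flox HFFC and 45 in flox chow over 3 libraries each. miR-125a-3p, the partner of the member with the largest value, had 7 counts in KO HFFC, 2 in flox HFFC and 1 in flox chow, too few for the test, and miR-125b-2-3p and miR-125b-1-3p had 16 and 3 counts in all.

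Relatives by seed and by position added little. The seed of miR-125 is shared in RefSeq by miR-351-5p, miR-6367 and miR-6394, of which miR-351-5p was in the table, with 5 counts in KO HFFC, 4 in flox HFFC and 6 in flox chow. No mature miRNA outside the members carried the miR-10 or miR-99/100 seed among the 1679 names of that table. Of the other Hox cluster miRNAs, miR-196b-5p had 203 counts in KO HFFC, 134 in flox HFFC and 220 in flox chow, and log2 fold changes of 0.29 ± 0.59 (SE) for KO HFFC over flox HFFC and −0.60 ± 0.59 for flox HFFC over flox chow. miR-196a-5p had 50, 12 and 23 counts in the same groups, with log2 fold changes of 1.91 ± 1.20 and −1.12 ± 1.24. miR-615-3p had 4 counts in all, and edgeR called none of this list in any comparison, as it called 0 of all tested entries.

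The patterns over the 9 libraries most like those of the members were sought by Pearson's r of log2 CPM with TMM scaling. Candidates were 226 of the tested entries, those with at least 100 counts. Of the 6 miRNAs of the miR-204 group 2 were tested, miR-92b-3p and miR-181b-5p, so miR-204-5p itself was not a candidate. The values are a description over points that share libraries and yield. miR-125a-5p was nearest to miR-149-5p (r = 0.893), miR-92b-3p (0.863) and its cluster mate miR-99b-5p (0.855). miR-99b-5p was nearest to miR-222-3p (0.873), miR-149-5p (0.857) and miR-181b-5p (0.856). miR-92b-3p and miR-181b-5p are among the 6 miRNAs of the miR-204 group, so these patterns include the order of the knockout libraries.

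The other members had other neighbours. miR-99a-5p was nearest to miR-652-3p (r = 0.911) and miR-25-3p (0.903), and miR-10a-5p to miR-25-3p (0.899) and let-7b-5p (0.878). miR-100-5p was nearest to miR-139-5p (0.845) and miR-99b-5p (0.832), and miR-125b-5p to the imprinted miR-127-3p (0.807) and to miR-24-3p (0.798). miR-125a-5p and miR-125b-5p were not among each other's 3 nearest entries, and miR-10b-5p, with 98 counts, was below the count minimum.

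Liver exosomes come from several cell types, and in bulk RNA fewer cells of a type and less RNA per cell cannot be told apart. miRNAs known from hepatocytes, led by miR-122-5p, summed to 283900 to 355300 CPM in KO HFFC, 251300 to 375600 in flox HFFC and 253300 to 422800 in flox chow, so hepatocyte miRNAs were abundant in every library. The 5 miRNAs known from stellate and other mesenchymal cells, which are known to be rich in miR-125b as well, summed to 11930 to 16830 CPM in KO HFFC, 8600 to 13340 in flox HFFC and 6648 to 14850 in flox chow. Of these 5, all had a log2 fold change above 0 in KO HFFC over flox HFFC, against 48.4% of all tested entries. Their median was 0.13, and the summed levels overlapped between the groups. In the other lists the tested entries above 0 were 2 of 6 hepatocyte, 3 of 4 epithelial, 0 of 2 endothelial, 1 of 4 erythroid, 2 of 5 immune and 1 of 2 muscle miRNAs. The 6 epithelial miRNAs summed to 1709 to 2733 CPM in KO HFFC, 582 to 2335 in flox HFFC and 568 to 1105 in flox chow, without overlap between KO HFFC and flox chow. Of these 6, miR-200c-3p and miR-205-5p are also members of the miR-204 group, so the lists are not separate readouts.

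The remaining lists overlapped between all groups. Endothelial miR-126a arms summed to 52550 to 66990 CPM in KO HFFC, 43520 to 61800 in flox HFFC and 37470 to 72730 in flox chow. Erythroid miRNAs summed to 6192 to 7922 CPM in KO HFFC, 6833 to 8713 in flox HFFC and 5187 to 12110 in flox chow, and immune miRNAs to 845 to 1071, 712 to 933 and 651 to 898 CPM in the same groups. Muscle miRNAs stayed at 277 CPM or lower except in flox chow replicate 3, where they reached 5897. The part of these cell types in the levels of the 7 miRNAs was not tested.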

How the data were processed

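Small RNA had been sequenced from liver exosomes in 9 libraries, grouped by the sample titles. The authors deposited whole-number counts per mature miRNA and, beside them, RPM values, which return the counts to within 0.0184 when multiplied by 1 total per library; deposited group means were not used, and 0 sample columns were left unmapped. The sources differ on the libraries: the study's methods name exosomal RNA and the NEBNext kit, the labels total tissue RNA and adapters with molecular identifiers. The study matched known miRNAs to miRBase and tested with DEGseq, which pools libraries; the submitters' processing notes name Bowtie2. No source used here gives the genome build, the counting tool or the treatment of identifiers.

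Counts were fitted with edgeR 4.0.16 in R 4.3.3 (TMM factors, a robust quasi-likelihood fit of all 9 libraries together, and filterByExpr at its minimum of 10 counts), with Benjamini-Hochberg adjustment over the 248 entries that passed (30 of them among the 131 predicted entries). The SE is the log2 fold change divided by the root of F, 95% intervals are normal ones from it, and the common biological coefficient of variation was 55%. Whether groups overlap was judged on CPM with TMM scaling, and plain levels gave the same answer for the 7 miRNAs. Shares carry 95% Wilson intervals, and diet differences in shares were tested by exact permutation. The members and lists were chosen with earlier results of these data known. Named were the 7 members, their opposite arms, cluster and Hox neighbours and seed relatives. For members with at least 100 counts, the 3 entries with the highest Pearson's r of log2 CPM (prior count 2) were named too. These came from entries that passed the filter and had at least 100 counts. Libraries of 1 group always differed by more than counting noise, with a chi-square of at least 60.6 for each degree of freedom, so no library was taken as a repeat of another. Nothing in the sources says that equal replicate numbers mark a shared litter or batch. Alternatives covered scaling, filters, DESeq2 1.42.0, limma-voom (limma 3.58.1), pooled Poisson counts, fits on 6 libraries, a replicate block and leaving out each library.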

Additional observations from a re-analysis of the deposited data

How the results depend on the processing

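With 3 libraries a group and a coefficient of variation of 55%, and with 1 to 28 counts of miR-10b-5p and 0 to 95 of miR-125a-5p per library, small differences were not detectable. The direction of a member changed in 13 of 138 alternative values of the diet comparison, 1 of 140 of KO HFFC over flox HFFC and 4 of 140 of KO HFFC over flox chow, the last 5 all in miR-10a-5p. Diet log2 fold changes that changed sign were those of miR-125a-5p (−0.10 with limma-voom, −0.16 with the replicate block, −0.23 to 0.74 leaving out 1 library), miR-99b-5p (−0.037 with 6 libraries, −0.28 to 0.20 leaving out 1), miR-99a-5p (−0.30 to 0.36 leaving out 1) and miR-100-5p (−0.49 to 0.25 leaving out 1). The cause was not tested. Pooled Poisson counts, which carry no spread between mice, called 140 of 248 tested entries in the diet comparison and 5 of the 7 members, from which nothing is read. They called 161 entries in KO HFFC over flox HFFC and 168 in KO HFFC over flox chow. The fit with that spread called 0 in each. In KO HFFC over flox HFFC, scaling by all tags called 1 entry, no low-count filter 7 and DESeq2 5, and leaving out 1 library 0 to 5 (5 without KO HFFC replicate 1, 1 without flox chow replicate 3). In KO HFFC over flox chow, plain totals called 1, all tags 4, no filter 10, leaving out predicted entries 2, DESeq2 6 and leaving out 1 library 0 to 5 (5 without KO HFFC replicate 1). Calls of members are not given for the knockout comparisons, since the knockout libraries served to choose the members. Plain totals moved the median of all entries in KO HFFC over flox HFFC to 0.21, against −0.03 with TMM. Of all library tags the 7 miRNAs made up 0.0177% in KO HFFC, 0.0125% in flox HFFC and 0.0154% in flox chow. Equal replicate numbers did not pair the libraries: the 9 same-number pairs correlated at −0.133 to 0.361 and 4 of 9 libraries matched their own number best. The replicate block called 0 entries in each comparison.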
